A study of Mus musculus with 5 samples.

Results

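The replication-dependent histone genes were taken as the protein-coding genes of the GENCODE vM21 annotation (GRCm38) whose symbol begins with Hist1h, Hist2h, Hist3h or Hist4h. This gave 67 of the 21755 protein-coding genes on the autosomes and the X chromosome. They were 6 genes of linker histone H1, 18 of H2A, 18 of H2B, 12 of H3 and 13 of H4. The Hist1 cluster on chromosome 13 held 54 of them, the Hist2 cluster on chromosome 3 held 10, and Hist3 on chromosome 11 and Hist4 on chromosome 6 held 2 and 1. For each gene the CpG calls within 500 bp of the annotated 5′ end (the TSS window) were summed, and 59 genes had at least 20 calls in every library. The gene clusters were also read in 1 kb windows lying between the histone genes, of which 283 of 616 had at least 20 calls in every library.

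DNA methylation was measured by whole-genome bisulfite sequencing in blasts of acute myeloid leukemia (AML) from mouse bone marrow (strain C57BL/6 in the labels), to ask what loss of TET2 does to methylation in leukemia driven by CEBPA p30. All blasts were Cebpa-/p30, with 1 allele deleted and the other making only the short p30 form of the myeloid transcription factor CEBPA. The groups were Cebpa-/p30 Tet2+/+ (libraries 23 and 24) and Cebpa-/p30 Tet2-/- (libraries 5, 7 and 8), the latter lacking the dioxygenase TET2, which oxidizes 5-methylcytosine. In the study's methods, marrow of C57BL/6J donors was transplanted into lethally irradiated adult female C57BL/6J.SJL recipients, floxed alleles were deleted with the interferon-inducible Mx1-Cre after poly(I)-poly(C) injection, and live donor-derived CD45.2+ CD3- B220- Ter119- cells were sorted. The gate removes lymphoid and erythroid cells but not mature myeloid cells, and the study's methods give the samples as taken from separate mice. Ages at harvest are not in the labels.

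Replication-dependent histones package newly made DNA, and their genes are switched on together in S phase at the histone locus body, where NPAT acts as coactivator. Most are small, lack introns and lie in dense clusters, and their mRNAs end in a stem-loop bound by SLBP instead of a poly(A) tail. A few members are testis variants: Hist1h1t codes for H1t, and Hist1h2aa and Hist1h2ba form a head-to-head pair that codes for the testis forms of H2A and H2B. Replication-independent variants such as H3f3a and H2afz come from dispersed genes with polyadenylated mRNAs and are made throughout the cell cycle.

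The libraries held 63111735 to 110752967 CpG calls, or 2.96 to 5.19 calls per CpG with both strands summed. The methylation level over all calls was 67.3% and 62.3% in the Tet2+/+ libraries and 70.9%, 74.8% and 68.4% in the Tet2-/- libraries 5, 7 and 8. Mitochondrial DNA, read as a measure of unconverted cytosine, stood between 0.807% and 0.989% in all 5 libraries. The first 1000 bp of the last Tet2 exon (chr3:133467191-133468190, 17 CpGs) had 44 and 64 calls in the Tet2+/+ libraries and 0 in each Tet2-/- library, which allows at most 3.72%, 3.82% and 6.64% of the depth around the gene in libraries 5, 7 and 8. As a check of the labelled cells, the TSS windows of 6 myeloid genes (Mpo, Elane, Prtn3, Ctsg, Csf1r and Itgam) ranged from 0.506% to 93.9% and those of 3 T cell genes (Cd3e, Cd3g and Cd3d) from 65.1% to 93.8%. In edgeR's quasi-likelihood test and in limma 0 of these 9 genes passed, against 0.564% and 0.862% of all genes. In the former 1 of the 9 had an unadjusted p below 0.05, against 13.9% of all genes, which is too few to be set apart from the background. Methylation is not a measure of the expression of these genes.

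The promoters of a methylated, a partly methylated and an unmethylated member are shown for comparison. The sequences run from 250 bases before the TSS to 50 bases after, on the gene's strand, from the RefSeq GRCm38 genome file, with CpGs in capitals. Hist1h2aa (chr13:23934212-23934511, plus strand, 9 CpGs) is a methylated testis promoter, Hist1h1t (chr13:23695564-23695863, plus strand, 10 CpGs) a partly methylated one, and Hist1h2bk (chr13:22035620-22035919, plus strand, 11 CpGs) an unmethylated one, which also belongs to a head-to-head H2A and H2B pair.
Hist1h2aa: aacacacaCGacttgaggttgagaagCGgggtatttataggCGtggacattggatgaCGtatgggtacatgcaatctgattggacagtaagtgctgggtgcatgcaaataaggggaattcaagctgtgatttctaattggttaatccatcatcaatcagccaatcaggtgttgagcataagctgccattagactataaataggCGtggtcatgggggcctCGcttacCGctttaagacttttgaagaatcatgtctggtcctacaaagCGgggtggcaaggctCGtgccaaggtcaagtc
Hist1h1t: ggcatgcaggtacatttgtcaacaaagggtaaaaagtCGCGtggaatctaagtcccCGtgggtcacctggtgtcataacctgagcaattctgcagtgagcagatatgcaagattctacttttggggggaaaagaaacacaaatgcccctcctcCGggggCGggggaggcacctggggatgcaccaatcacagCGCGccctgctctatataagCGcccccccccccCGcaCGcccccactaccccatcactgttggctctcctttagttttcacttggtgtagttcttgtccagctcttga
Hist1h2bk: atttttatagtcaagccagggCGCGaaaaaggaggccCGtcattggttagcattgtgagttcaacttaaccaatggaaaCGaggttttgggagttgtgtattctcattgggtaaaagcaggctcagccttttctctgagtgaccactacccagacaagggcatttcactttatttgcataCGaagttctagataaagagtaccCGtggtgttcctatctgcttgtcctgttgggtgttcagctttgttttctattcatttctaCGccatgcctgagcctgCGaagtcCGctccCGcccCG

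The letters of the histone promoters differed from those of other genes in several ways that the choice by symbol did not use. The median TSS window held 62 CpGs, against 41 over all protein-coding genes, and the median ratio of observed to expected CpGs was 0.879 against 0.558. Motifs were searched on both strands from 250 bases before the TSS to 50 after, and no motif searched contains another. The searched stretches of head-to-head pairs can overlap, so the same site can count for both genes and the counts are not independent. The TATA box letters TATAAA were found in 37 of 67 histone promoters (55.2%), against 12.7% of all protein-coding promoters. CCAAT was found in 56 (83.6%) against 38.9%, including all 18 H2A and all 18 H2B genes. The octamer ATTTGCAT, the letters read by OCT1 (Pou2f1), was found in 7 H2A and 8 H2B promoters, which is 22.4% of the histone promoters against 1.59% of all. TTTCGCGC was found in 5 H2A and 4 H2B promoters, 13.4% of the histone promoters against 0.354% of all, whereas TTTGGCGC was in 0 of 67 and in 0.699% of all. Hist1h2aa carried the TATA letters as well as CCAAT and the octamer, as did Hist1h2bk, which also carried TTTCGCGC, while Hist1h1t carried only CCAAT. In Hist1h2bk the TATA letters and TTTCGCGC were on the opposite strand, near the 5′ end of the stretch, on the side of its head-to-head partner. The octamer of Hist1h2aa was also on the opposite strand. Methylated and unmethylated members thus shared letters.

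The 3′ stem-loop was searched within 150 bases after the stop codon and was found in 51 of 67 genes, starting 24 to 59 bases after it. It took 3 forms, shown because each of these 51 genes carries 1 of them, with the core in capitals.
In 41 genes: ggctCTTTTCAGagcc
In 8 genes: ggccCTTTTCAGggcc
In 2 genes: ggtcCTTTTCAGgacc
Hist1h2aa and Hist1h1c held the first form and Hist1h4m the second. Hist1h1t, Hist1h2ba and Hist1h2bk held none of the searched letters in this stretch, which says nothing of how their mRNAs end.

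Outside the testis variants, histone promoters were almost free of methylation in both genotypes. Of the 56 tested genes that are not testis variants, 55 were below 5% in every library, and the remaining gene, Hist2h3c2 (an H3 gene), reached 5% in library 8 with 1 methylated call of 20 (exact 95% interval 0.127% to 24.9%). Over all 18091 tested genes, 40.6% were below 5% in every library. By class, the levels ran from 0% to 3.70% in 4 H1 genes, from 0% to 4.05% in 15 H2A genes, from 0% to 2.70% in 15 H2B genes, from 0% to 5% in 11 H3 genes and from 0% to 3.42% in 11 H4 genes. No single library had more than 8 methylated calls in any of these windows, and 85 of the 280 values (30.4%) were 0. The intervals and limits given here cover counting error only. The median upper bound of the exact 95% interval was 3.81%, so differences of a few percentage points were not detectable in a single window at this depth.

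**Figure D1:**
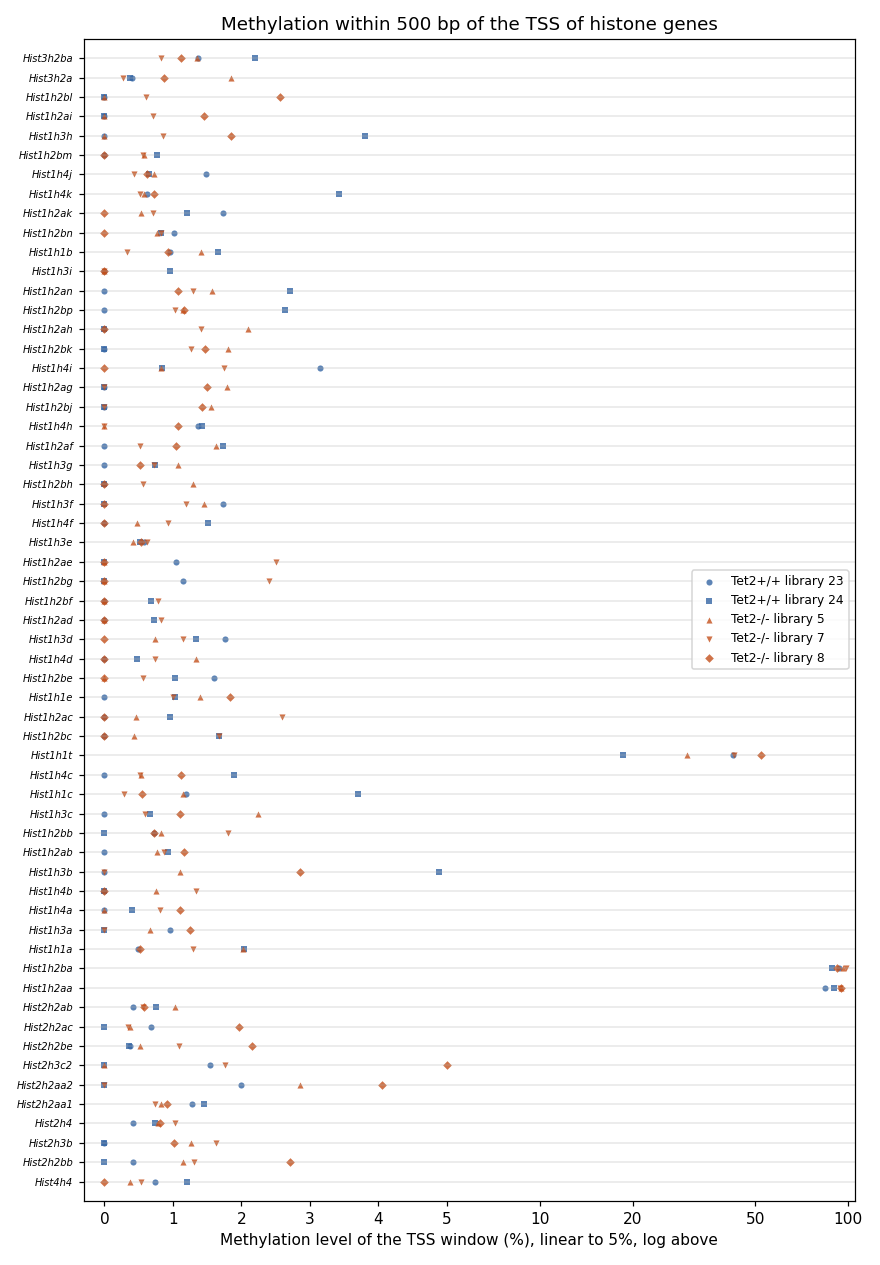
Methylation level (%) within 500 bp of the TSS of the 59 tested histone genes, in genome order, with 1 point per library (blue Tet2+/+, orange Tet2-/-). The axis is linear up to 5% and logarithmic above. Only Hist1h1t, Hist1h2ba and Hist1h2aa have points above 5%.

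Summed over the 56 genes, the level was 0.545% and 0.944% in the Tet2+/+ libraries 23 and 24, and 0.870%, 0.838% and 0.916% in the Tet2-/- libraries 5, 7 and 8. The groups overlapped. The mitochondrial levels were 0.915% and 0.853% in Tet2+/+ and 0.807%, 0.989% and 0.887% in Tet2-/-, which lay inside the exact 95% interval of the sum in libraries 24, 5, 7 and 8 but above that of library 23 (0.393% to 0.736%). The difference between the means was 0.13 percentage points, with SDs of 0.282 (n = 2) and 0.0393 (n = 3), and it became -0.0693 without library 23 and 0.329 without library 24. With the 3 testis variants the Tet2+/+ libraries summed to 4.85% ± 0.415 (SD, n = 2) over 59 genes, against 4.51% ± 0.177 (SD, n = 3) in the knockout. The difference of these sums was negative (-0.335 percentage points), while the median difference of the genes was positive (0.20). It does not stand for a loss at the testis variants, as all 3 were higher in Tet2-/- and their own sum differed by 7.01 percentage points. A sum weighs each window by its calls. The testis windows held 425 of 8126 and 518 of 8677 calls in Tet2+/+, and 590 of 12319, 563 of 13096 and 335 of 7432 in Tet2-/-. Over all 18091 genes the sum was 11.6% ± 1.14 (SD, n = 2) against 13.1% ± 0.305 (SD, n = 3), with a median difference of 0.851 percentage points, and the difference of these sums (1.5) was 2.31 without library 23 and 0.696 without library 24. The difference was above 0 in 34 of 59 histone genes (57.6%) and in 71.1% of all genes.

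0 of the 59 histone TSS windows passed an adjusted p of 0.05 in edgeR's quasi-likelihood test, against 0.564% of all tested genes (102 of 18091). At that share a count of 0 among 59 cannot be set apart from the background. At an unadjusted p below 0.05 there were 5 histone genes (8.47%), against 13.9% of all genes. edgeR's likelihood ratio test passed 0 histone genes and 3.69% of all genes, limma 0 and 0.862%, and limma with library medians subtracted 0 and 0.475%. Under that centring 10 histone genes (16.9%) had an unadjusted p below 0.05, against 13.7% of all genes, so which side of the background they fell on changed with the centring. The smallest adjusted p of the quasi-likelihood test was 0.253, for Hist2h2bb. All Tet2-/- libraries lay above both Tet2+/+ libraries in 6 histone genes (10.2%), against 27.2% of all genes, and below both in 9 (15.3%), against 5.04% of all genes. In most of these windows the order rests on a few methylated calls. Some of them overlap and share CpGs, such as those of Hist1h2ak and Hist1h2bn, both lower, so the counts are not of independent genes. In the Hist2 block the TSS sum was 0.565% and 0.423% in Tet2+/+ and 0.908%, 0.933% and 1.74% in Tet2-/-, with no overlap, and the difference of 0.701 percentage points was 0.426 without library 8. The Tet2+/+ sums of the Hist2 block lay below the mitochondrial levels of the same libraries (0.915% and 0.853%). Of the 9 tested genes of the block 8 were higher in Tet2-/-, 4 of them with groups apart, while Hist2h2aa1 was lower with groups apart, at 1.28% and 1.45% against 0.82%, 0.735% and 0.917%. Some of its windows overlap too. In Hist1 block A the TSS sum was 0.599% and 1.06% in Tet2+/+ and 0.949%, 0.709% and 0.872% in Tet2-/-, with overlapping groups. In Hist1 block B, which holds the testis variants, it was 8.88% and 9.61% against 8.37%, 8.16% and 8.59%, apart in the lower direction. There 19 of 30 genes were higher in Tet2-/-.

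Among the genes whose groups lay apart in the higher direction, Hist2h2bb, an H2B gene (chr3:96269252-96270252), had levels of 0.415% and 0% in Tet2+/+ and 1.14%, 1.30% and 2.70% in Tet2-/-. The 0% rests on 293 calls and allows up to 1.02%. Hist1h2bk, an H2B gene (chr13:22035370-22036370), had 0% in both Tet2+/+ libraries, which allows up to 3.16% and 3.19%, and 1.81%, 1.27% and 1.47% in Tet2-/-. Both genes are unmethylated in every library, and the limits in Tet2+/+ of Hist1h2bk lie above its Tet2-/- levels. The H3 gene Hist2h3b and the H2B gene Hist2h2be differed by 1.30 and 0.88 percentage points with adjusted p-values of 0.33 and 0.559 (edgeR quasi-likelihood).

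In the lower direction the largest difference was that of Hist1h1c, which codes for a somatic linker histone (chr13:23738308-23739308). Its levels were 1.19% and 3.70% in Tet2+/+ and 1.15%, 0.291% and 0.543% in Tet2-/-, a difference of -1.79 percentage points (adjusted p = 0.356, edgeR quasi-likelihood). Library 24, with 8 methylated calls of 216, stood above the others, and library 23 stood beside library 5. Among genes whose groups lay apart, Hist1h2be, Hist1h2ak, Hist1h4h and Hist1h3d followed with differences from -1.13 to -0.91 percentage points and adjusted p-values from 0.389 to 0.767. The window of Hist1h2be lies far from its start codon, and in a window centred on the start codon its groups overlapped at 0.794% and 0.793%. At the bottom of the range, the H3 gene Hist1h3i had 1 methylated call in library 24 and 0 of 80, 120, 147 and 110 calls in libraries 23, 5, 7 and 8. Hist1h2bf, Hist1h2ad, Hist1h2bh and Hist1h2bm were the next lowest, with means over the 5 libraries of 0.294% to 0.382%. The highest outside the testis variants were the H2A gene Hist2h2aa2 (1.78%) and the H3 gene Hist1h3b (1.77%), the latter with 4 methylated calls of 82 in library 24.

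By class and without the testis variants, the summed level of 15 H2A windows was 0.437% and 0.65% in Tet2+/+ and 1.04%, 0.796% and 0.968% in Tet2-/-. That of 15 H2B windows was 0.488% and 0.60% against 0.768%, 1.04% and 1.14%. The Tet2-/- libraries were the higher ones in both classes, but the windows of head-to-head pairs overlap (22 of the 59 tested windows overlap another member's window), so the classes share CpGs. In both classes the Tet2+/+ sums lay below the mitochondrial levels of the same libraries (0.915% and 0.853%), and the Tet2-/- sums lay around theirs. The sums compared are thus close to or below the level read as unconverted cytosine, which itself overlapped between the genotypes. What gives the separation was not tested. H3 windows gave 0.526% and 1.10% against 0.828%, 0.71% and 0.916%, and H4 windows 0.679% and 1.04% against 0.519%, 0.785% and 0.589%, with overlapping groups in both. The 4 H1 windows gave 0.652% and 2.16% against 1.52%, 0.74% and 0.984%.

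The testis variants were the exception. Hist1h2ba (ENSMUSG00000050799.3, chr13:23933656-23934656), which codes for the testis H2B, was methylated at 93.3% and 88.9% in Tet2+/+ and at 96.4%, 98.5% and 92.3% in Tet2-/-. The groups overlapped, since library 8 was below library 23. Its partner Hist1h2aa (ENSMUSG00000060081.1, chr13:23933962-23934962) had 84% and 90.3% in Tet2+/+ and 94.9%, 94% and 95% in Tet2-/-. Here the groups did not overlap, the difference was 7.52 percentage points and the adjusted p was 0.337 (edgeR quasi-likelihood). The shared promoter region means that these are not independent readings.

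Hist1h1t (ENSMUSG00000036211.4, chr13:23695314-23696314), the testis linker histone, was the only tested member at an intermediate level. Its level was 42.5% and 18.7% in Tet2+/+, from 106 and 134 calls, and 29.9%, 42.6% and 52.1% in Tet2-/-, from 167, 148 and 73 calls. The exact 95% intervals of the 2 Tet2+/+ libraries were 32.9% to 52.4% and 12.5% to 26.3%, so these libraries differed from each other by more than counting error. The adjoining upstream stretch (chr13:23694314-23695313) was at 94.9% and 87.3% in Tet2+/+ and at 95.1%, 93.8% and 94.7% in Tet2-/-. A window centred on the start codon, 52 bp downstream, was lower in every library (39.3% and 16.2% against 24.3%, 37.7% and 44.2%). The level thus changed with position here. In bulk DNA a window level does not separate a share of cells, of alleles per cell or of its CpGs. Which of these holds was not tested. In the TSS window the difference between genotypes was 10.97 percentage points (adjusted p = 0.692, edgeR quasi-likelihood), and without library 24 it was -0.93. The 3 testis windows had a CpG ratio of 0.681 (Hist1h2ba), 0.649 (Hist1h2aa) and 0.438 (Hist1h1t), against 0.521 to 1.10 among the other 56 tested members, of which 3 were below Hist1h2ba.

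Around the histone TSSs the level climbed within 3000 bp. Because the genes are clustered and often head to head, these stretches hold the promoters of other members, which bears on every comparison with other genes at these distances. Summed over all 67 genes, the last 500 bp before the TSS had 5.60% ± 0.594 (SD, n = 2) in Tet2+/+, against 4.61% ± 0.231 (SD, n = 3) in the knockout, testis variants included. It rose to 19.2% and 19.3% between 2000 and 1000 bp before the TSS, and to 35% and 35.8% between 3000 and 2000 bp before it. At other protein-coding genes the last of these distances stood at 62.2% and 69.6%. Per library, this distance gave 36.6% and 33.6% in Tet2+/+ and 33.8%, 39.9% and 33.8% in Tet2-/- at histone genes, with overlapping groups. The difference of 0.79 percentage points became -1.26 without library 7 and -0.71 without library 24, and at other genes it was 7.42, or 5.83 and 5.30 without these libraries. Between 2000 and 3000 bp after the TSS it was 1.36 at histone genes, -0.64 without library 7 and -0.84 without library 24, against 7.41 at other genes.

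**Figure D2:**
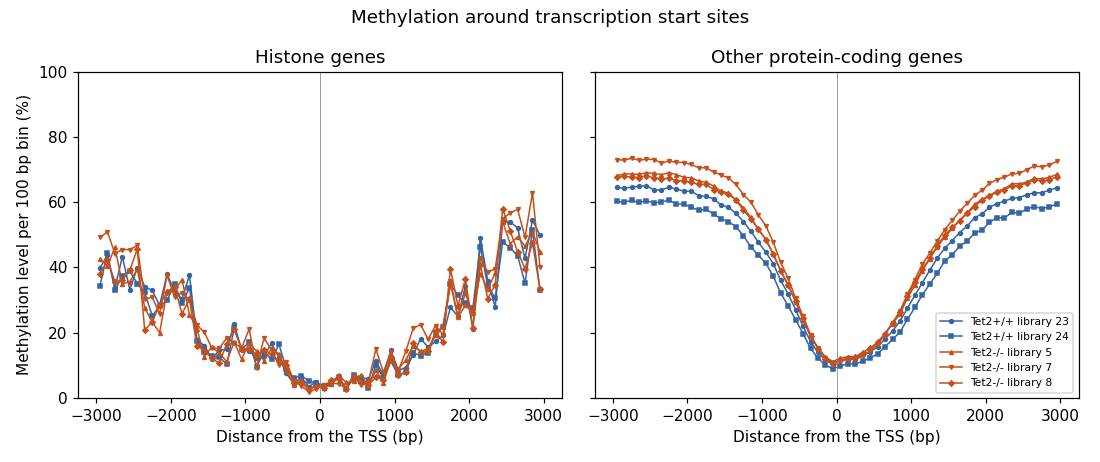
Methylation level (%) in 100 bp bins against the distance from the TSS (bp), for 67 histone genes and for all other protein-coding genes, with 1 line per library (blue Tet2+/+, orange Tet2-/-). The lines of the 2 genotypes cross at histone genes. At other genes the Tet2-/- lines lie above the Tet2+/+ lines in all bins except those from 0 to 400 bp after the TSS.

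The flanks were tested from 500 to 1500 bp on each side. Upstream, 0 of 50 tested histone flanks passed in edgeR's quasi-likelihood test, against 2.82% of all flanks, and 2 (4%) had an unadjusted p below 0.05, against 20.9% of all. Downstream, 0 of 47 passed, against 2.3% of all flanks, and 2 (4.26%) had an unadjusted p below 0.05, against 19.3% of all. With library medians subtracted, limma gave the opposite order, with 12 upstream flanks (24%) against 12.7% of all and 9 downstream flanks (19.1%) against 12.8% of all at an unadjusted p below 0.05. limma passed 0 on both sides, against 3.17% of all upstream and 2.69% of all downstream flanks, and also 0 with medians subtracted, against 0.382% and 0.323%. edgeR's likelihood ratio test passed 0 upstream, against 7.14% of all, and 1 downstream, against 6.56% of all. That 1 was Hist2h3b, whose downstream flank covers most of the TSS window of Hist2h2bb described above and so holds the same CpGs, with levels of 0% and 0% in Tet2+/+ and 1.07%, 1.29% and 2.15% in Tet2-/- (adjusted p = 0.0325 in that test and 0.0726 in the quasi-likelihood test). The groups lay apart in the higher direction in 5 upstream flanks (10%), against 38.1% of all, and in 4 downstream flanks (8.51%), against 34.9% of all. In the lower direction they lay apart in 4 upstream flanks (8%), against 326 of all 14396, and in 3 downstream flanks (6.38%), against 558 of all 16716.

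Most low flanks upstream lay on another member's promoter. The Tet2+/+ mean was below 5% in 29 of 50 upstream flanks, against 10% of all upstream flanks, but 27 of the 29 overlap the TSS window of another histone gene. Of the 15 upstream flanks without such an overlap 2 (13.3%) were below 5%. Downstream, 23 of 47 flanks were below 5%, against 22.9% of all, and of the 36 without an overlap 13 (36.1%) were.  Methylated flanks lay next to unmethylated promoters at some genes. The upstream flank of the H2A gene Hist1h2ab was at 83.3% and 90.5% in Tet2+/+ and 84.3%, 87.2% and 84.6% in Tet2-/-. The downstream flank of the H2B gene Hist3h2ba was at 74% and 79.2% in Tet2+/+ and at 82.4%, 88.7% and 92.2% in Tet2-/-, with groups apart, and did not pass (adjusted p = 0.313, edgeR quasi-likelihood).

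The clustered genes formed 3 blocks, defined as runs of at least 3 histone genes with neighbours at most 250 kb apart. Hist1 block A (chr13:21715763-22043676) held 23 histone genes in 327.9 kb, Hist1 block B (chr13:23531050-23934851) held 31 in 403.8 kb, and the Hist2 block (chr3:96219865-96270132) held 10 in 50.3 kb. Depth per CpG in the blocks was 0.68 to 0.91 of the library's own depth, over all libraries and blocks. The 283 tested windows between the genes (136, 126 and 21 in the 3 blocks) had a mean over the libraries above 80% in 156 cases, of 20% to 80% in 95 and below 20% in 32.

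Summed over these windows, the level was 55.9% and 57% in Tet2+/+ and 58.8%, 63.9% and 58.6% in Tet2-/-. The groups did not overlap, and the difference of the means was 3.95 percentage points, with SDs of 0.774 (n = 2) and 3.03 (n = 3). Without library 7 it was 2.20 percentage points. Over all 1047054 windows of the genome it was 6.64 percentage points, from 64.1% ± 3.33 to 70.7% ± 2.82. The difference was above 0 in 209 of the 283 windows (73.9%), against 80.6% of all windows. In 75 windows (26.5%) every Tet2-/- library lay above both Tet2+/+ libraries, against 32.9% of all windows, and in 10 (3.53%) below both, against 2.06%.

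The blocks differed in where the level stood. Hist1 block A had 46.2% and 47.9% in Tet2+/+ and 47.6%, 51.8% and 48% in Tet2-/-, with overlapping groups. Hist1 block B had 68.7% and 68.5% in Tet2+/+ and 73.8%, 80.3% and 74% in Tet2-/-, with no overlap and a difference of 7.46 percentage points. The Hist2 block had 63.9% and 66.3% against 69%, 81.8% and 64.9%, with library 8 inside the Tet2+/+ range, and its difference of 6.78 percentage points was 1.82 without library 7. Library 7, the most methylated library over the whole genome, was the highest in each block. By distance from the nearest histone TSS, the level had no single trend: Tet2+/+ libraries had 46.6% ± 2.02 (SD, n = 2), against 53% ± 9.72 (SD, n = 3) in the knockout below 2 kb (13 windows), 72.2% ± 1.70 and 79.9% ± 4.55 from 2 to 5 kb (30 windows), 55% ± 0.65 and 59.9% ± 4.30 from 5 to 20 kb (84 windows), and 55.4% ± 0.635 and 58.3% ± 2.03 beyond 20 kb (156 windows). Below 2 kb the groups overlapped. The differences of 6.39, 7.65, 4.91 and 2.88 percentage points at these distances became 0.812, 5.37, 2.48 and 1.76 without library 7. By level, the 95 windows with a mean of 20% to 80% had a median difference of 10.4 percentage points, the 32 windows below 20% one of 0.532 and the 156 windows above 80% one of 2.95. Without library 7 these were 5.88, -0.275 and 2.03, and the windows below 20% had 0.0234 without library 23 and 0.934 without library 24. The bins were set on the mean over all 5 libraries, the same values that are compared. Windows near either end of the scale have less room for a difference, so the order of the bins is partly fixed by this choice.

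**Figure D3:**
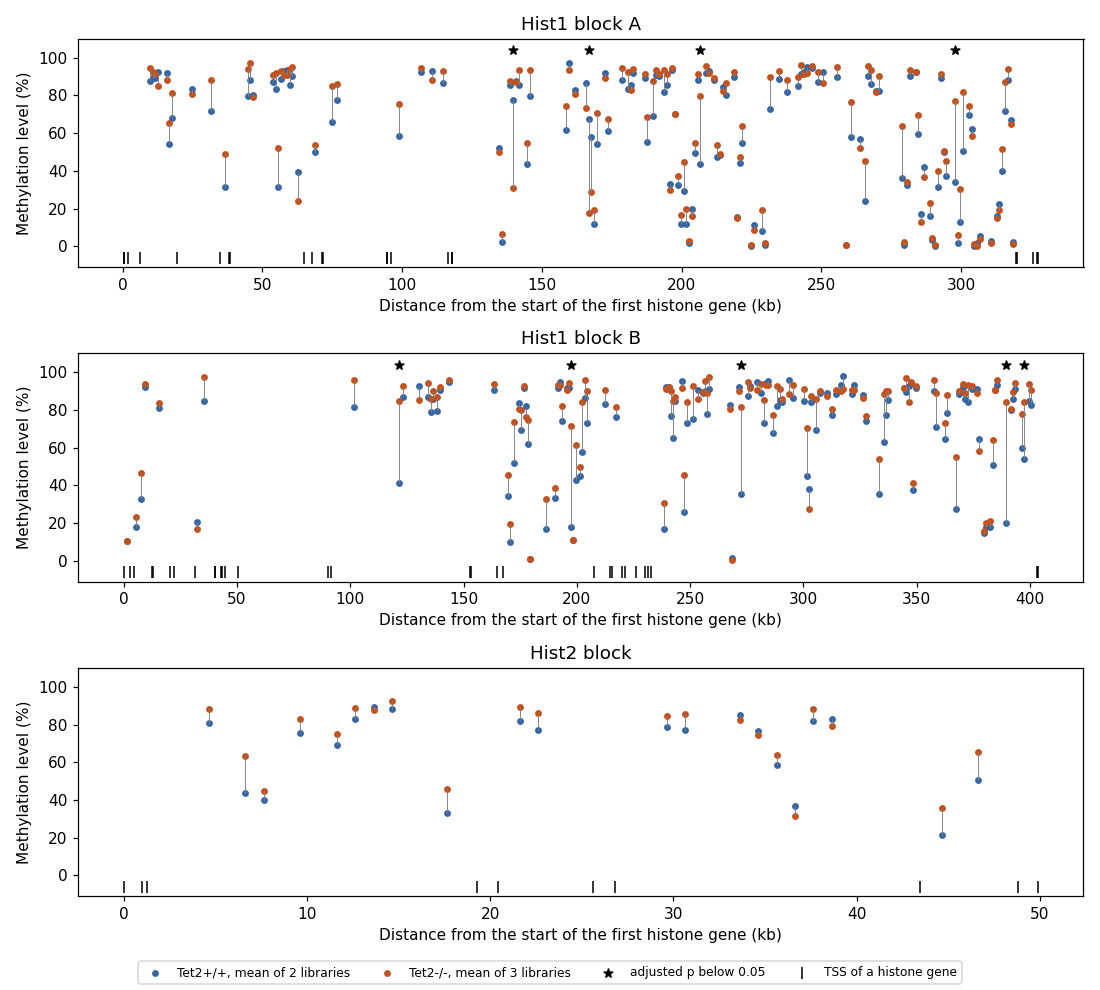
Mean methylation level (%) of the tested 1 kb windows between histone genes against the distance from the start of the first histone gene (kb) in each block, blue for Tet2+/+ (2 libraries) and orange for Tet2-/- (3 libraries), joined by a line per window. Stars mark the 9 windows with an adjusted p below 0.05 and ticks the TSSs of histone genes. Of the 283 windows 156 have a mean above 80%, and the median gap of the 95 windows at 20% to 80% is 10.4 percentage points, or 5.88 without library 7. Windows near either end of the scale have less room for a gap.

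By the quasi-likelihood test 9 of the 283 windows had an adjusted p below 0.05. The Tet2-/- level was higher in 7 of them (2.47%, against 2.28% of all windows) and lower in 2 (0.707%, against 0.00926% of all windows). The share of higher windows was thus near that of the genome. Hist1 block A held 2 higher and both lower windows, Hist1 block B held 5 higher ones, and the Hist2 block held 0 of 21. The likelihood ratio test passed 11 windows including these 9 (3.89%, against 4.03% of all windows), limma passed 8 of the 9 and no other window (2.83%, against 2.19%), and limma with library medians subtracted passed 4 of the 9 (1.41%, against 0.34%). Without library 24 only 1 of the 9 passed, without library 23 and without library 7 there were 5, all of them among the 9, without library 8 there were 6, and without library 5 there were 9, of which 7 were shared. Leaving out library 24 or 23 leaves a single Tet2+/+ library, which is then assumed to vary like the Tet2-/- libraries.

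The largest gain was at chr13:23920001-23921000 (8 CpGs, no annotated gene), 13.7 kb from the TSS of Hist1h2ba. Its level was 23.3% and 17.1% in Tet2+/+, from 43 and 35 calls, and 71%, 96.4% and 85% in Tet2-/-, from 31, 28 and 20 calls. The difference was 63.9 percentage points (adjusted p = 0.000743, edgeR quasi-likelihood), and the adjusted p was 0.0522 without library 24. The next was chr13:23728001-23729000 (16 CpGs), over an exon of the unprocessed pseudogene Gm11338 and 10.3 kb from Hist1h1c. There the levels were 11% and 24.5% in Tet2+/+ and 70.2%, 78.9% and 65.7% in Tet2-/- (adjusted p = 0.000337), and it was the only window past the threshold with each library left out in turn (adjusted p of 0.000815 to 0.0418). The third, chr13:23803001-23804000 (15 CpGs), lay in an intron of the antisense gene Gm11337, with 28.1% and 42.6% against 86.3%, 84.2% and 74.2% (adjusted p = 0.00381, and 0.106 and 0.0576 without library 23 and 24). In each of these 3 windows the groups were far apart compared with the spread within them. The other 4 gains ranged from 30.3 to 43.7 percentage points with adjusted p-values of 0.00499 to 0.0496, and each missed the threshold without library 24. All 7 gained windows had a Tet2+/+ mean between 17.7% and 54%.

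The 2 losses lay in Hist1 block A in stretches with no annotated gene, and the nearest histone gene to both was Hist1h2br. At chr13:21855001-21856000 (27 CpGs) the levels were 66.3% and 88.9% in Tet2+/+, from 92 and 108 calls, and 60.6%, 21.5% and 10.9% in Tet2-/-, from 175, 200 and 129 calls. The difference was -46.6 percentage points (adjusted p = 0.00701, edgeR quasi-likelihood), but the adjusted p was 0.48 without library 24, 0.0637 without library 7 and 0.0614 without library 8. At chr13:21882001-21883000 (29 CpGs) the levels were 43.8% and 91.7% in Tet2+/+ and 45.7%, 2.06% and 5.88% in Tet2-/-, named after its values were seen because its groups overlap. Its adjusted p was 0.00847, and 0.57 and 0.118 without library 24 and 7. In both windows libraries 7 and 8 were low, library 24 was high, and libraries 23 and 5, of different genotypes, stood close to each other. The neighbouring windows at chr13:21883001-21884000 and chr13:21881001-21882000 were lower in Tet2-/- by 29 and 13.2 percentage points with groups apart, and did not pass (adjusted p = 0.136 and 0.316, edgeR quasi-likelihood). In the former the groups were barely apart, with library 23 at 40% and library 5 at 39.6%, while library 24 stood at 76.1%.

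**Figure D4:**
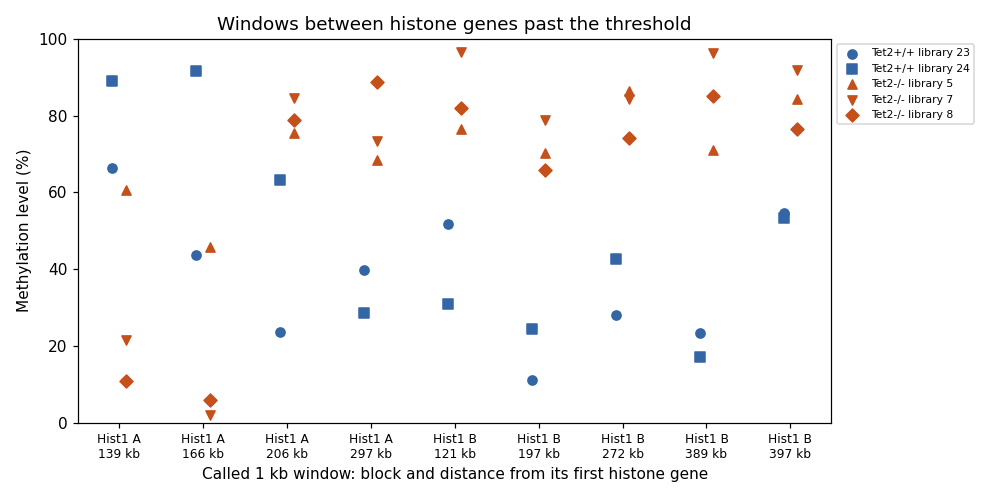
Methylation level (%) per library in the 9 windows past the threshold, labelled by block and distance from its first histone gene (kb), blue for Tet2+/+ and orange for Tet2-/-. In 7 windows the Tet2-/- points lie above the Tet2+/+ points, and in the 2 lower windows of block A library 5 stands close to library 23.

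8 histone genes had fewer than 20 calls in some library, and 7 of these lie in copied sequence. For Hist1h2bq, Hist1h2ao, Hist1h4m, Hist1h4n, Hist1h2ap and Hist1h2br in Hist1 block A and for Hist2h3c1 in the Hist2 block, more than 90% of the 50-base words of the TSS window occur more than once on the autosomes and X. Hist2h3c2 is as repeated (94.7%) and only just passed. The 8 genes over 90% had a median depth of 0.101 calls per CpG, against 2.74 (range 0.772 to 7.18) at the other members and 4.09 over the genome. Pooled over libraries, the 7 untested copies had 6 methylated of 441 calls (1.36%). Hist1h4m, an H4 gene and the only member on the study's list of genes that differ in RNA, had 1 methylated of 17 calls in library 23 and 0 of 17, 7, 7 and 3 calls in libraries 24, 5, 7 and 8, where 0 of 17 still allows 17.6%.

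**Figure D5:**
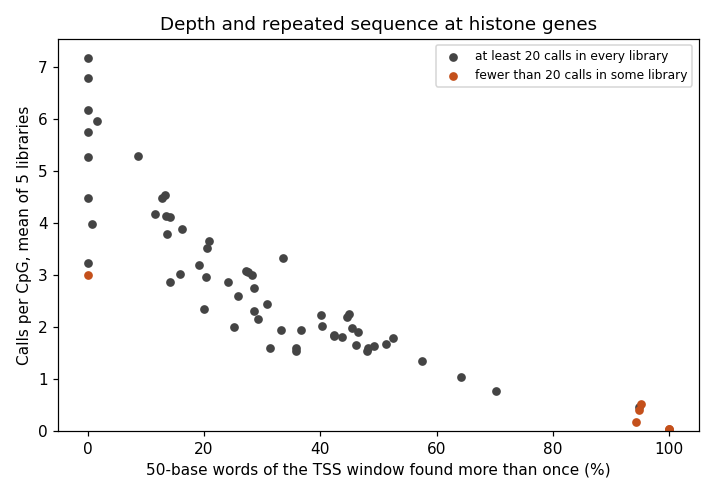
Calls per CpG (mean of 5 libraries) against the share of 50-base words of the TSS window found more than once (%), with 1 point per histone gene, in grey for the 59 tested genes and in orange for the 8 others. The 8 genes above 90% have a median of 0.101 calls per CpG, against 2.74 at the other members, and Hist2h3c2 is the tested gene among them.

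The annotated 5′ end lies far from the start codon in 2 genes. The untested Hist1h1d, a linker histone gene, has its 5′ end 1828 bp before the start codon, in a window of 4 CpGs with 11 of 12, 12 of 12, 12 of 16, 11 of 11 and 6 of 9 calls methylated in libraries 23, 24, 5, 7 and 8. In a window centred on the start codon, chosen after the values were seen, it had 0.571% and 3.26% in Tet2+/+ and 0.667%, 1.20% and 1.22% in Tet2-/-. Hist1h2be has a 5′ end 35168 bp from its start codon, where a centred window gave 0% and 1.59% in Tet2+/+ and 0.971%, 0% and 1.41% in Tet2-/-. Read at the start codon, both genes were as unmethylated as the others of their classes.

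Among 18 genes that make histone mRNA, including Npat, Slbp and the U7 snRNP subunits Lsm10 and Lsm11, 0 passed in edgeR's quasi-likelihood test or in limma and 3 had an unadjusted p below 0.05 in the former. Over all genes 0.564% passed and 13.9% had such a p, so these counts, and those of the lists that follow, are too few to be set apart from the background. The 18 genes had a median difference of 0.346 percentage points against 0.851 over all genes. The coactivator Npat had 0.43% and 0.35% in Tet2+/+ and 0.66%, 0.37% and 0.56% in Tet2-/-, and Slbp had 1.75% and 1.08% against 1.30%, 0.89% and 2.96%. Coil, which codes for coilin, had 23.5% and 16.7% against 40.6%, 50.5% and 31.7%, with groups apart and an adjusted p of 0.32 (edgeR quasi-likelihood). Its window held only 5 CpGs. Of 14 replication-independent histone genes 0 passed in either test and 0 had an unadjusted p below 0.05, with a median difference of 0.596 percentage points. The variants H2afz and H2afx were below 3% in every library, whereas the germline linker histones H1foo and H1fnt were at 87.5% to 96.3%. Hils1, the spermatid linker histone, stood lower, at 63.3% and 53.4% in Tet2+/+ and 72.7%, 55.2% and 56.7% in Tet2-/-. H3f3b ranged from 15.8% to 66.1%, in a window of only 10 CpGs, against 119 at H3f3a. Whether the annotated 5′ ends of Coil and H3f3b mark their main promoters was not tested. Of the 9 other protein-coding genes inside the blocks 8 were tested, 0 passed in either test, 1 had an unadjusted p below 0.05, and the median difference was 4.02 percentage points. Among them Zfp184 was below 2% in every library, and Pom121l2, in Hist1 block A, had 14.7% and 7.2% in Tet2+/+ and 8%, 50% and 49.7% in Tet2-/-, with library 5 beside the Tet2+/+ libraries.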

How the data were processed

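Genomic DNA of sorted blasts was bisulfite converted and sequenced in 5 libraries, 2 Tet2+/+ and 3 Tet2-/-. Per the labels and the study's methods, the authors trimmed reads with Trim Galore 0.4.3 (FastQC 0.11.7), aligned them to GRCm38 with Bismark 0.19.1 and Bowtie2 in non-directional mode, removed duplicates and deposited counts of methylated and unmethylated calls per CpG. Reads with several equal best places are not counted, which lowers depth in copied genes. Bisulfite does not separate 5-methylcytosine from 5-hydroxymethylcytosine.

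From these deposited counts both strands of each CpG were summed. Levels are methylated calls over all calls. A window entered the tests if no library had fewer than 20 calls there. The main test was the quasi-likelihood test of edgeR 4.0.16 (R 4.3.3), with a coefficient per library, and Benjamini-Hochberg adjustment over all genes or all 1 kb windows (two-sided, threshold 0.05). limma 3.58.1 was run on log2 odds with 2 added to both counts. The tests were checked on simulated calls with 2 spreads between libraries. The smaller spread was added after the quasi-likelihood test recovered none of the planted changes at the larger one, where limma recovered most, so a count of 0 by the quasi-likelihood test alone is weak and limma's count is given beside it. An exact test over the 10 splits of 2 against 3 libraries cannot go below p = 0.1 and was not used. Nothing in the labels names a batch. Intervals are exact binomial (95%), and a count of 0 allows 3 calls of the total. No column was left without a sample.

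The members, lists and motifs were chosen with earlier results of these data known. Named members were the testis variants, Hist1h4m, the 5 largest differences in each direction with groups apart, the 5 highest and lowest levels, and the 3 largest windows between genes in each direction. Some marker genes of other cell types are not reported here. Alternatives were the call minimum, window size, test, centring, thinning, block definition and leaving out each library.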

Additional observations from a re-analysis of the deposited data

How the results depend on the processing

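No paired analysis was possible because the groups share no replicate numbers. The count of 0 histone TSS windows past the threshold held under all 14 alternatives (1 of them, the 5′ end of the transcript nearest to the start codon, chosen after seeing the data), the 0 upstream flanks under all 10, and the 0 downstream flanks under 9 of 10, with 1 by edgeR's likelihood ratio test. Since only 0.564% of all genes passed in the main test, a steady 0 among 59 TSS windows says little about the members. The 9 windows between genes became 3 with at least 50 calls (66 windows tested), 4 with library medians subtracted and 21 with histone genes joined up to 2 Mb apart (584 windows tested), and ranged from 1 to 9 with a library left out. The difference of the summed TSS level (-0.335 percentage points) was 0.502 as a mean of window levels and 0.13 without the 3 testis variants, which hold most methylated calls and were all higher in Tet2-/-, and ranged from -0.629 to -0.0421 with a library left out. That of the windows between genes ranged from 2.2 to 4.87 percentage points. Among single genes, none of which passed, the sign turned for Hist1h1t without library 24 (-0.932, and up to 22.9 without another library), Hist1h2be (0.333 with 200 bp on each side), Hist1h2ak (0.118 with 1000 bp and 0.231 with 200 bp), Hist1h3d (1.07 with 1000 bp), Hist1h3i (0.332 with 1000 bp), Hist1h3b without library 24 (1.32, and down to -3.56 without another library), Hist1h2bf (0.0147 with 1000 bp, and -0.422 to 0.262 with a library left out), Hist1h2ad (0.0184 with 1000 bp, 0.505 after thinning, and -0.444 to 0.275 with a library left out) and Hist1h2bm (0.397 with 200 bp, and -0.388 to 0.381 with a library left out). The cause was not tested. Depth limits single promoters to differences of several percentage points, and copied genes cannot be read.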
